A study of Homo sapiens with 16 samples.

Results

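Cholesterol synthesis and its control by the transcription factor SREBP2 were examined through 8 genes, chosen by name from the 60107 genes listed in each of 16 libraries. They were HMGCS1, FDPS, FDFT1, SQLE, CYP51A1 and DHCR7, which encode enzymes of the pathway, SREBF2, which encodes SREBP2, and INSIG1, which encodes a sterol sensor of the endoplasmic reticulum. The libraries hold sequence tags from the 3′ ends of cytoplasmic RNA of U2OS-TR cells, which derive from a human osteosarcoma and express the tet repressor. Of them 10, 5 Control and 5 Induced, came from U2OS-TR/ΔN-RNMT, 1 clonal line picked for its high expression, in which doxycycline switches on ΔN-RNMT from a CMV promoter with tet operators. ΔN-RNMT is an inactive cap methyltransferase confined to the cytoplasm, and with it the study asked which mRNAs depend on cap methylation there. The other 6 libraries, 3 No Dox and 3 With Dox, came from the parental U2OS-TR line and answer what doxycycline does without the transgene. Induced and With Dox cells received 1 μg/ml doxycycline 48 h after they were split and were harvested 24 h later, whereas Control and No Dox cells received none. The protocol recorded with the libraries lists doxycycline for all of them, so the treatment was taken from the study's methods. All cells of both lines carried the repressor and grew in serum free of tetracycline.

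Cells build cholesterol from acetyl-CoA by way of mevalonate, farnesyl diphosphate, squalene and lanosterol. When sterols in the endoplasmic reticulum are low, SCAP escorts SREBP2 to the Golgi, where proteases free its active part to enter the nucleus and switch on genes of synthesis and uptake. When sterols are plentiful, INSIG proteins hold SCAP back. SREBP2 binds sterol regulatory elements, often beside a CCAAT box bound by NF-Y, and its targets include most of the pathway's enzymes, INSIG1 and SREBF2 itself.

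The promoters of the genes on which the results turn are shown for these 2 motifs. RefSeq promoters for GRCh38.p14, from 250 bases before to 50 bases after the start, were read for 6 of the 8 genes. SQLE and FDFT1 had no entry. The start is that of RefSeq, so these promoters can reach inside the gene bounds printed below, as those of FDPS, HMGCS1 and DHCR7 do. The letters TCACCCCAC, the core of a sterol regulatory element, were searched on both strands and occurred in the promoter of SREBF2 alone among the 6, and in 151 of all 35116 promoters (0.430%). CCAAT, read as ATTGG on the other strand, occurred in the promoters of HMGCS1, INSIG1, SREBF2, FDPS and DHCR7 and not in that of CYP51A1, against 34.6% of all promoters. GGGCGG, the core of a GC box, occurred in all 6 and in 45.0% of all promoters. Motif matches are exact letters within these windows only, so elements spelled otherwise were not counted and a missing match does not show that an element is absent. HMGCS1 and FDPS are printed because their levels were called in opposite directions below, and SREBF2 because both motifs stand in it. Capitals mark the motifs, and each run reads 5′ to 3′ on the gene's own strand.
SREBF2, chr22:41832960-41833015, forward strand: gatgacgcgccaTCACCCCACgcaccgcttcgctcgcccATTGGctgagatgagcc
HMGCS1, chr5:43313550-43313579, reverse strand: agtttccttttgATTGGtagaagccggact
HMGCS1, chr5:43313495-43313524, reverse strand: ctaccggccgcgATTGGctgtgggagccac
FDPS, chr1:155308678-155308707, forward strand: ttcagcccttccATTGGtcgtccgtcacag
FDPS, chr1:155308732-155308761, forward strand: gacggccagcagCCAATcagcgcggctcat
FDPS, chr1:155308803-155308832, forward strand: tcccgcgggcacATTGGgagttgtagtcta
The CCAAT box of SREBF2 began 27 bases past the start of its sterol regulatory element. HMGCS1 held 2 CCAAT boxes and FDPS 3. Of 45 other genes of the pathway with a promoter in the table, 22 held CCAAT, 39 held GGGCGG and 0 held TCACCCCAC.

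The U2OS-TR/ΔN-RNMT libraries held 12527183 to 23251834 counts on genes, and the parental ones, sequenced on another instrument, 1473286 to 3214808. Tags outside genes numbered at most 0.106 per count on a gene in the former and at least 1.11 in the latter. Levels are counts per mega-count (CPM) scaled by edgeR's TMM factors within each line, so that levels are not set against each other between lines. RNMT, of which ΔN-RNMT is a part, was between 55.6 and 112 CPM in Control libraries and between 266 and 458 in Induced ones (log2 fold change 2.22, standard error 0.23, edgeR adjusted P = 0.00805). In a principal component analysis of the U2OS-TR/ΔN-RNMT libraries, where the leading axis held 78.9% of the variance, Control replicate 5 lay at 33.9 among the Induced libraries and Induced replicate 2 at -13.5 between the groups. The other 4 Control libraries lay between -102 and -45.3, and the other 4 Induced ones between 57.4 and 71.4. VIM, SPARC, COL1A1 and RUNX2, markers of mesenchymal and bone-forming cells, were detected in all libraries. RUNX2 stood between 2.44 and 20.7 CPM, close to the range of the epithelial marker EPCAM below. COL1A2, SP7 and BGLAP, which also mark such cells, were at or near 0, as were the blood and hepatocyte markers PTPRC, CD74, ALB and APOA1. ALPL, of bone-forming cells, was at most 1.21 CPM. Among epithelial markers, EPCAM stood between 1.83 and 14.3 CPM, CDH1 at most at 2.67 and KRT5 at most at 1.20.

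All 8 genes passed the filter on low counts in both lines. In U2OS-TR/ΔN-RNMT cells, HMGCS1 and CYP51A1 were called higher and FDPS lower, and the other 5 were not called at an adjusted P below 0.05. That is 3 of 8 genes, beside 39.8% of all 13038 genes tested in this comparison, of which 20.0% were called higher and 19.8% lower. The median log2 fold change was 0.05 over the 8 genes and 0.04 over all genes. A share of called genes close to the background is not a result about these 8.

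HMGCS1, on chromosome 5 from 43287470 to 43313512 on the reverse strand, encodes the synthase that makes HMG-CoA, an early intermediate on the way to mevalonate. HMGCS1 was at 91.2, 72.6, 53.0, 118 and 180.3 CPM in Control replicates 1 to 5 and at 257, 207, 241, 215 and 95.6 CPM in Induced replicates 1 to 5. In 4 of the 5 Induced libraries HMGCS1 lay above every Control library, and Induced replicate 5 lay inside the Control range. The means were 103 ± 49.4 CPM (SD, n = 5) and 203 ± 63.5 CPM (SD, n = 5), a 1.97-fold rise. HMGCS1 rose by 0.98 on the log2 scale (standard error 0.34, 95% interval 0.24 to 1.72, edgeR adjusted P = 0.0396). Without Control replicate 5, the log2 fold change of HMGCS1 was 1.27 (edgeR adjusted P = 0.00323), and without Induced replicate 2 it was 0.97 (edgeR adjusted P = 0.0484). HMGCS1 stayed called when Induced replicate 5 was left out and was not called in any of the other 7 fits with 1 library left out. An lncRNA, ENSG00000261604, overlaps HMGCS1 on the opposite strand and had no more than 1 count in any library of this line.

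FDPS, on chromosome 1 from 155308748 to 155320666 on the forward strand, encodes the synthase of farnesyl diphosphate, from which sterols, ubiquinone, dolichol and prenyl groups are made. FDPS was at 230, 245, 423, 223 and 164 CPM in the Control replicates and at 158, 189, 156, 141 and 103 CPM in the Induced ones. In 4 of the 5 Induced libraries FDPS lay below every Control library. Control replicate 3 was the highest of all 10 libraries, and Control replicate 5, at 164 CPM, lay under Induced replicate 2. The means were 257 ± 97.6 CPM (SD, n = 5) and 149 ± 31.2 CPM (SD, n = 5). The fall of FDPS came to -0.78 in log2 fold change (standard error 0.25, 95% interval -1.33 to -0.24, edgeR adjusted P = 0.0306). With libraries scaled by total counts alone it was -0.53 and no longer called (edgeR adjusted P = 0.0634). The log2 fold change of FDPS was -0.92 without Control replicate 5 (edgeR adjusted P = 0.00396), -0.88 without Induced replicate 2 (edgeR adjusted P = 0.0205) and -0.55 without Control replicate 3 (edgeR adjusted P = 0.052). FDPS also lost its call without Control replicate 1 or 2, or without Induced replicate 1, 3, 4 or 5. FDPS has 8 pseudogenes in the annotation, and the counting dropped tags with more than 1 alignment, so that part of its tags may be missing.

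CYP51A1, on chromosome 7 from 92084987 to 92134803 on the reverse strand, encodes the cytochrome P450 that takes a methyl group off lanosterol. CYP51A1 was at 1.12, 0.70, 0.39, 1.02 and 7.68 CPM in the Control replicates and at 10.7, 3.06, 11.5, 9.36 and 11.9 CPM in the Induced ones. In 4 of the 5 Induced libraries CYP51A1 stood above every Control library, while Control replicate 5 stood above Induced replicate 2, the pair that also crossed on the leading axis. These levels rest on few tags, between 7 and 177 in Control libraries and between 65 and 203 in Induced ones. The means were 2.18 ± 3.09 CPM (SD, n = 5) and 9.30 ± 3.62 CPM (SD, n = 5). CYP51A1 rose by 2.06 on the log2 scale (standard error 0.70, 95% interval 0.52 to 3.60, edgeR adjusted P = 0.0382), the largest among the 8 genes in this comparison. Without Control replicate 5 it was 3.49 (edgeR adjusted P = 0.00041), and without Induced replicate 2 it was 2.28 (edgeR adjusted P = 0.0216). Leaving out any other single library ended the call of CYP51A1. CYP51A1 overlaps AKAP9 on the opposite strand and, in GENCODE, 2 protein-coding genes on its own, ENSG00000285772 and ENSG00000289027. It has 3 pseudogenes, and whether the counting used strand is not given in the sources used here.

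**Figure D1:**
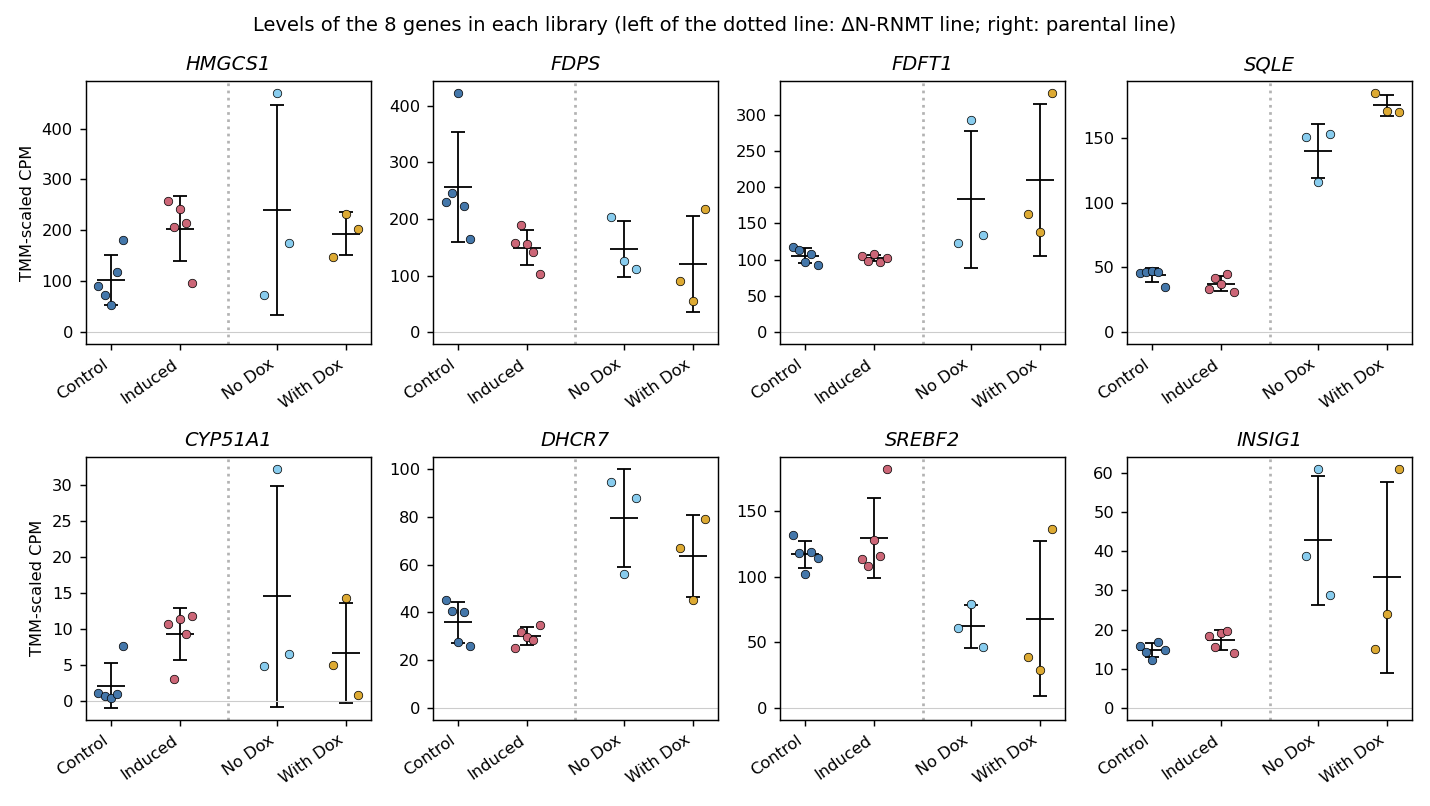
Level of each of the 8 genes in every library, in TMM-scaled CPM on an axis of its own per gene. Points are libraries, long ticks are group means and bars are SDs (n = 5 per group left of the dotted line, n = 3 per group right of it), and bars that reach below 0 are spread and not possible levels. HMGCS1, FDPS and CYP51A1 show 4 of 5 Induced libraries beyond the Control range, and the 3 With Dox libraries of SQLE, between 170.3 and 185 CPM, lie above the 3 No Dox ones.

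FDFT1 encodes squalene synthase, the enzyme that commits farnesyl diphosphate to sterols, and lies on chromosome 8 from 11795573 to 11839395. FDFT1 was at 117, 113, 96.5, 107 and 92.8 CPM in the Control replicates and at 105, 98.6, 107, 96.5 and 102 CPM in the Induced ones. The Induced libraries all lay within the Control range. Its log2 fold change of -0.05 (standard error 0.12, edgeR adjusted P = 0.776) had the narrowest 95% interval of the 8 genes, from -0.32 to 0.23.

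SQLE encodes squalene monooxygenase, which puts the epoxide on squalene, and lies on chromosome 8 from 124998497 to 125022283. SQLE was at 45.6, 46.5, 46.9, 46.2 and 34.7 CPM in the Control replicates and at 33.3, 41.4, 37.1, 44.9 and 30.9 CPM in the Induced ones. All 5 Induced libraries lay below the Control median, 2 of them below every Control library, and Control replicate 5 stood apart from the other 4 Control libraries. For SQLE, the log2 fold change came to -0.23 (standard error 0.15, 95% interval -0.56 to 0.11, edgeR adjusted P = 0.235). With libraries scaled by total counts alone it was 0.01, so no direction can be given for SQLE.

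DHCR7 encodes the reductase of the last step to cholesterol, and lies on chromosome 11 from 71428193 to 71452868. DHCR7 was at 45.1, 40.6, 27.7, 40.2 and 25.9 CPM in the Control replicates and at 25.0, 32.0, 29.9, 28.4 and 34.9 CPM in the Induced ones. Each Induced library lay below the Control median, and Control replicates 3 and 5 fell within the Induced range. The log2 fold change was -0.26 (standard error 0.19, 95% interval -0.66 to 0.15, edgeR adjusted P = 0.265).

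SREBF2, the gene of the factor itself, lies on chromosome 22 from 41833105 to 41907306, holds the microRNA gene MIR33A and has 19 exons in its canonical transcript. SREBF2 was at 132, 118, 102, 119 and 114 CPM in the Control replicates and at 113, 108, 128, 116 and 182 CPM in the Induced ones. Only Induced replicate 5 lay outside the Control range. The log2 fold change was 0.14 (standard error 0.17, 95% interval -0.22 to 0.51, edgeR adjusted P = 0.491), and it was -0.01 with that library left out. MIR33A was at 0 counts in all 16 libraries, which hold tags next to poly(A) tails, so this is no measure of the microRNA.

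INSIG1, a target of SREBP2 that in turn retains SCAP, lies on chromosome 7 from 155297776 to 155310235. INSIG1 was at 15.7, 14.2, 12.2, 16.8 and 14.7 CPM in the Control replicates and at 18.3, 15.6, 19.2, 19.7 and 14.0 CPM in the Induced ones. INSIG1 lay above every Control library in 3 Induced ones and in the remaining 2 within the Control range. The log2 fold change was 0.23 (standard error 0.15, 95% interval -0.10 to 0.57, edgeR adjusted P = 0.217). A P value above the threshold does not show that the levels of these 5 genes were alike, and the intervals give the sizes that remain possible. None of the 8 genes had Control and Induced groups without overlap, against 7.30% of all genes tested. Levels are shares of a library's tags, so fewer cells with an mRNA and less of it per cell cannot be told apart.

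**Figure D2:**
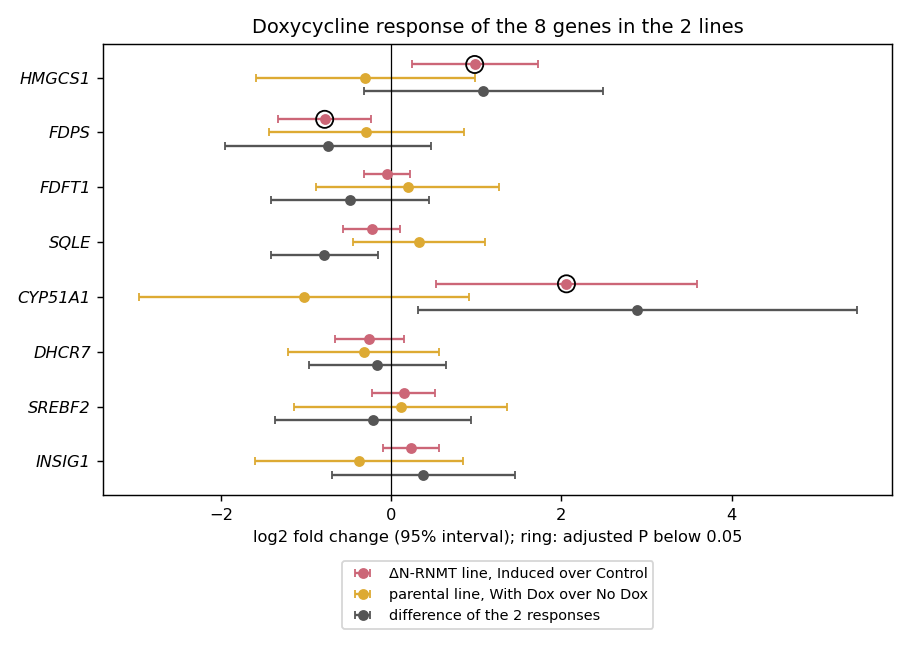
Log2 fold change of each gene with its 95% interval, for Induced over Control libraries (n = 5 and 5), With Dox over No Dox libraries (n = 3 and 3) and the difference of the 2 responses over all 16 libraries. Rings mark an adjusted P below 0.05, and only HMGCS1, FDPS and CYP51A1 carry one, all of them for Induced over Control.

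The 6 enzymes are part of a list of 20 enzymes between acetyl-CoA and cholesterol, all of which were tested. Of the 20, 5 were called higher, 5 lower and 10 not called, with a median log2 fold change of -0.24 beside 0.04 over all genes. As 20.0% of all genes were called higher and 19.8% lower, these counts are near the background and are not a result about the list. Besides HMGCS1 and CYP51A1, the ones called higher were IDI1, the isomerase of isopentenyl diphosphate, by 2.11 on the log2 scale (standard error 0.44, edgeR adjusted P = 0.0175), LBR, a sterol reductase of the inner nuclear membrane, by 1.36 (standard error 0.39, edgeR adjusted P = 0.0227), and MSMO1, a methylsterol oxidase, by 0.61. Besides FDPS, the ones called lower were NSDHL, a sterol dehydrogenase, at -1.33 (standard error 0.30, edgeR adjusted P = 0.0175), MVK, mevalonate kinase, at -1.21, MVD, the decarboxylase that follows it, at -0.68, and EBP, a sterol isomerase, at -0.49. As called, HMGCS1, which leads to mevalonate, was called higher, MVK and MVD, which act on it and its diphosphate, were called lower, and IDI1 next to FDPS was called higher while FDPS was called lower.

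IDI1 was at 1.22, 2.22, 1.83, 2.42 and 4.69 CPM in the Control replicates and at 15.3, 3.15, 15.0, 11.6 and 9.08 CPM in the Induced ones, where all but Induced replicate 2 lay above every Control library. NSDHL was at 214, 231, 319, 191 and 93.5 CPM in the Control replicates and at 57.1, 125, 67.0, 77.5 and 90.1 CPM in the Induced ones, and only Control replicate 5 and Induced replicate 2 crossed. The calls of IDI1 and NSDHL held in each of the 10 fits with 1 library left out, with log2 fold changes between 1.94 and 2.47 for IDI1 and between -1.53 and -1.15 for NSDHL. The call of MSMO1 held in 6 of those 10 fits, that of MVK in 5, that of LBR in 4 and those of MVD and EBP in 3 each. PMVK, the kinase between MVK and MVD, was not called (log2 fold change -0.31, edgeR adjusted P = 0.135). With the offsets for GC content described below its log2 fold change was 0.029. All its Induced values, at most 9.56 CPM, lay below its lowest Control value, 9.60 CPM. PMVK was the only 1 of the 20 enzymes without overlap. Such separation, in either direction, held for 7.30% of all genes tested and is not a result about PMVK.

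**Figure D3:**
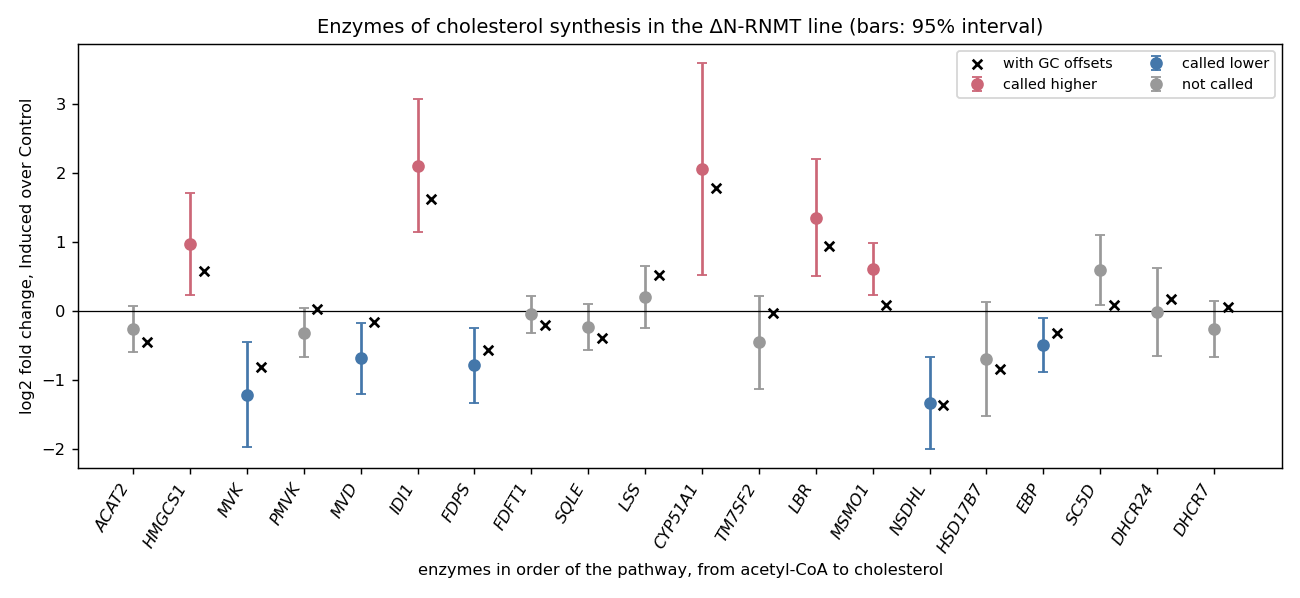
Log2 fold change of Induced over Control libraries (n = 5 and 5) for the 20 enzymes in pathway order, with 95% intervals and colours for the call. Crosses give the value after offsets for GC content, which moved CYP51A1 from 2.06 to 1.78, HMGCS1 from 0.98 to 0.58 and FDPS from -0.78 to -0.56 and left NSDHL at -1.36.

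Among the 10 genes of the SREBP machinery, 3 were called higher, 1 lower and 6 not called, SREBF2 and INSIG1 among the latter, a share close to the 39.8% of all genes. SREBF1, the gene of the related factor SREBP1, was called higher by 1.75 on the log2 scale (standard error 0.51, edgeR adjusted P = 0.0237), INSIG2, the homologue of INSIG1, by 1.40, and RNF145, a ubiquitin ligase that acts on SCAP, by 0.62. SCAP was called lower, at -0.73. Of the 10 fits with 1 library left out, the calls of SREBF1 and INSIG2 held in 5 each, that of SCAP in 4 and that of RNF145 in 3. SREBF1 and INSIG2 were thus called where their homologues SREBF2 and INSIG1 were not, and whether the homologues differed in response was not tested. Of 5 genes of cholesterol transport, NPC1, NPC2, STARD4, TMEM97 and SOAT1, 0 were called, and their log2 fold changes lay between -0.14 for TMEM97 and 0.32 for NPC1. With offsets for GC content STARD4 turned from 0.19 to -0.42 and SOAT1 from 0.20 to -0.22, without a call, and TMEM97 was -0.38.

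Of 10 genes of fatty acid synthesis that SREBPs control, SCD, the desaturase of stearoyl-CoA, was called higher by 1.20 and ME1, malic enzyme, by 0.65, and 0 were called lower. Of 4 tested genes of the LXR receptors and cholesterol efflux, the transporter ABCG1 was called higher by 0.83 and the receptor NR1H3 lower at -0.77, and ABCA1 was not tested. Of 9 genes that draw on farnesyl diphosphate, PDSS1, which makes the side chain of ubiquinone, was called higher by 1.09 and 0 were called lower. Over the 50 tested genes of these lists that are not among the 8, 10 were called higher and 6 lower, which is to be read beside the 20.0% and 19.8% of all genes.

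The calls went with the GC content of the transcripts, taken as the canonical GENCODE transcript. Over the 12922 tested genes with a transcript, split into 4 equal bins from low to high GC, the median log2 fold change was 0.43, 0.20, -0.13 and -0.46. In the lowest bin 36.8% of genes were called higher and 2.85% lower, and in the highest bin 6.25% and 41.3%. HMGCS1 and CYP51A1, called higher, had the lowest GC content of the 8 genes, 39.0% and 41.0%. INSIG1 had 44.8%, SQLE and FDFT1 each 46.5%, FDPS 55.0%, SREBF2 58.0% and DHCR7 58.1%. The 5 enzymes called higher had between 37.4% and 41.0% GC and the 5 called lower between 49.6% and 65.5%, without overlap, while the 10 not called spanned 36.9% to 62.4%. Over all tested genes of the lists the ranges did overlap, at 36.3% to 63.2% for the 12 called higher and 49.6% to 65.5% for the 7 called lower. With offsets that take a smooth curve of counts on GC content out of each library, 0 of the 8 genes were called by edgeR (4 had an unadjusted P below 0.05). HMGCS1 then had a log2 fold change of 0.58 (edgeR adjusted P = 0.129), CYP51A1 of 1.78 (edgeR adjusted P = 0.0569) and FDPS of -0.56 (edgeR adjusted P = 0.0847). DHCR7 changed sign under the offsets, from -0.26 to 0.06, SREBF2 went from 0.14 to 0.46 (edgeR adjusted P = 0.0585) and INSIG1 from 0.23 to 0.0066. IDI1 at 1.63 and LBR at 0.95 were still called higher and NSDHL at -1.36 lower, and ACAT2, the thiolase that opens the pathway, was called lower at -0.45. MSMO1 at 0.096, MVD at -0.15, MVK at -0.81 and EBP at -0.32 were no longer called. SREBF1, whose transcript has 63.2% GC, was called higher with the offsets too, at 2.11 (edgeR adjusted P = 0.0338). SCD at 1.07, ABCG1 at 1.03 and PDSS1 at 0.84 were still called higher, while INSIG2 at 0.85, RNF145 at 0.41, ME1 at 0.23, SCAP at -0.32 and NR1H3 at -0.42 were not called. The part of GC content in these calls was not tested beyond this.

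**Figure D4:**
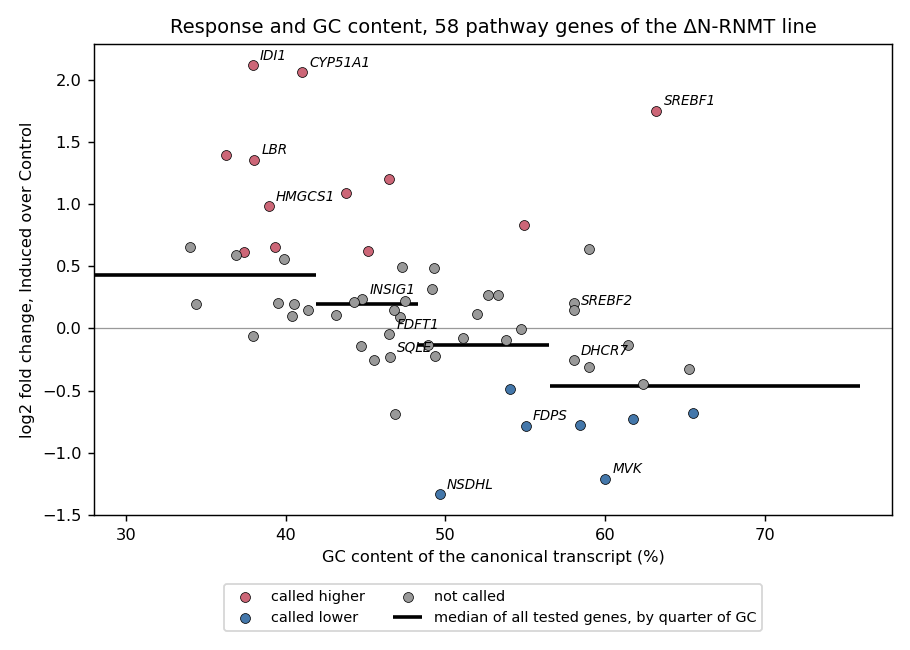
Log2 fold change of Induced over Control libraries (n = 5 and 5) against the GC content of the canonical transcript, for the 58 tested genes of the lists, coloured by call. Black bars are medians of all tested genes in 4 bins of GC content, which fall from 0.43 to -0.46, and SREBF1 at 63.2% GC and 1.75 lies far above the bar of its bin.

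In the parental line, doxycycline changed none of the 8 genes past the threshold. None of the 9124 genes tested was called by edgeR (0%), while 267 had an unadjusted P below 0.05 and DESeq2 called 1. HMGCS1 was at 73.2, 470.0 and 176 CPM in the No Dox replicates and at 147, 232 and 202 CPM in the With Dox ones. The No Dox libraries spread over the whole With Dox range, and the 95% interval of the log2 fold change, -1.59 to 0.98, held both a fall and a rise. ENSG00000261604, on the strand opposite to HMGCS1, had between 81 and 567 counts in these libraries, where HMGCS1 itself had between 119 and 771. FDPS was at 204, 125 and 112 CPM in the No Dox replicates and at 89.7, 54.2 and 217 CPM in the With Dox ones, and its groups overlapped as well. The opposite-strand RNA RUSC1-AS1, which overlaps FDPS, had between 130 and 374 counts here and between 5 and 21 in U2OS-TR/ΔN-RNMT libraries. Other opposite-strand RNAs had fewer raw counts here, in libraries of lower depth. ENSG00000255046, over FDFT1, had between 0 and 12 counts here and between 17 and 78 in U2OS-TR/ΔN-RNMT libraries. ENSG00000254682, over DHCR7, had between 2 and 24 here and between 36 and 192 there. These are raw counts from libraries of unlike depth, 1473286 to 3214808 counts on genes here and 12527183 to 23251834 there. Fewer raw counts over FDFT1 and DHCR7 thus do not show lower levels in the parental line. The part of these overlaps in the parental levels was not tested.

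CYP51A1 was at 4.92, 32.3 and 6.59 CPM in the No Dox replicates and at 5.00, 14.4 and 0.81 CPM in the With Dox ones, from between 1 and 53 tags. Its log2 fold change had a 95% interval of -2.96 to 0.92. SQLE was at 151, 116 and 153 CPM in the No Dox replicates and at 185, 171 and 170.3 CPM in the With Dox ones. The 3 With Dox libraries all lay above the 3 No Dox ones. Groups without overlap, in either direction, occurred for 9.52% of all genes tested. The log2 fold change of SQLE was 0.32 (standard error 0.35, edgeR adjusted P = 0.997). FDFT1 ranged from 124 to 293 CPM without doxycycline and from 138 to 330.0 CPM with it, and DHCR7 from 56.1 to 94.7 CPM and from 45.1 to 79.0 CPM. SREBF2 ranged from 46.7 to 79.3 CPM and from 29.1 to 136 CPM, and INSIG1 from 28.7 to 61.0 CPM and from 15.0 to 61.1 CPM. The groups of these 4 genes overlapped. Of the other genes of the lists, 40 were tested and 0 called.

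Whether the lines differed in their response was tested as an interaction over all 16 libraries. There, line cannot be told apart from sequencing instrument, read length, sequencing facility or depth. None of the 8 genes was called, while 365 of 12265 genes were (2.98%). The difference, as the response of U2OS-TR/ΔN-RNMT minus that of the parental line, was 2.89 on the log2 scale for CYP51A1 (standard error 1.22, 95% interval 0.32 to 5.47, edgeR adjusted P = 0.148). It was -0.79 for SQLE (standard error 0.30, 95% interval -1.41 to -0.16, edgeR adjusted P = 0.116), 1.08 for HMGCS1 (standard error 0.67, edgeR adjusted P = 0.307) and -0.74 for FDPS (standard error 0.58, edgeR adjusted P = 0.416). The other 4 lay between -0.48 for FDFT1 and 0.38 for INSIG1. Without Control replicate 5, CYP51A1 at 4.20 (edgeR adjusted P = 0.0112) and SQLE at -0.89 (edgeR adjusted P = 0.0401) were called, and no other single library gave a call. So the rise of HMGCS1 and CYP51A1 and the fall of FDPS in Induced cells were not shown to differ from the parental response to doxycycline.

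For 7 of the 8 genes, FDFT1 left aside, the tested gene whose level followed it most closely was found over the 10 U2OS-TR/ΔN-RNMT libraries, by the root mean square difference of centred log2 CPM. It was ECPAS for HMGCS1 (0.145, beside a median of 0.834 over all tested genes), ARAP3 for FDPS (0.0673, median 0.606) and PISD for CYP51A1 (0.135, median 1.73). It was NAPG for SQLE (0.0880, median 0.444), CFAP298 for INSIG1 (0.0905, median 0.486), PPP2R1A for SREBF2 (0.0455, median 0.497) and ZBTB17 for DHCR7 (0.118, median 0.497). SQLE, INSIG1, SREBF2 and DHCR7 varied less themselves, by a root mean square of 0.207 to 0.280 about their means. For HMGCS1, FDPS and CYP51A1 it was 0.525 to 1.72, so distances are not comparable between genes. None of the closest matches belongs to the lists, and none of the 7 had another of the 8 as its closest match. Each match is the closest of all tested genes, of which the lists are a small part, so this outcome was likely beforehand. The profiles also hold the difference between Control and Induced libraries. Whether the pathway moved together was not tested.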

How the data were processed

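The authors deposited unnormalized counts of QuantSeq REV tags per Ensembl gene, made for GRCh38 with Lexogen's QuantSeq pipeline. The aligner, the annotation, the use of strand and the handling of duplicate tags are not given in the sources used here. Genes were named and placed with GENCODE 44, which named 56104 of 60107. Summary entries that name no gene, with tags outside genes at 0.0744 or more per gene count, and 92 spike-in entries at 0 were left out.

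In R 4.3.3, a filter kept genes whose base mean exceeded 20, and they were compared by the quasi-likelihood test of edgeR 4.0.16 with TMM factors, Benjamini-Hochberg adjustment over all genes tested, and calls at an adjusted P below 0.05. Standard errors are the log2 fold change over the root of F. CPM used for likeness had a prior count of 2. The main edgeR fits were also run on simulated counts with set changes, and the alternatives below were not. The simulated counts were drawn gene by gene, so they cannot test the fits against the spread that real libraries share. Alternatives used DESeq2 1.42.0, its size factors, total counts, other filters, the replicate block, GC offsets (span 0.5), 1 surrogate variable from sva 3.50.0, and single libraries left out.

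The study describes the U2OS-TR/ΔN-RNMT libraries of a group as biological replicates and the parental ones as made from separate cultures. No pair of libraries within a group differed by sampling noise alone. The 8 genes and the lists were chosen with earlier results of these data known, and lists are described without a test. Named genes were RNMT, the 8 genes, up to 6 called genes per list by size of change, and closest matches. PMVK, ACAT2 and the genes of cholesterol transport were named after their values were seen. Some genes of the lists and 1 closest match are not reported here, and counts over the lists leave them out.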

Additional observations from a re-analysis of the deposited data

Results flagged for a closer look

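Of 18 groups of 5 libraries checked, which are the 8 genes and RNMT in Control and Induced cells, 3 held a library far from the rest, where chance gives about 1 in 20. HMGCS1 was 95.6 CPM in Induced replicate 5, CYP51A1 was 3.06 CPM in Induced replicate 2, and SQLE was 34.7 CPM in Control replicate 5. In each of the 3, the odd library lay on the side of the other group of libraries. The response to doxycycline differed between the lines by the interaction test for RNMT, by 2.43 on the log2 scale (edgeR adjusted P = 0.0258), and was called in 8 of 16 fits with 1 library left out (2.31 to 2.77).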

How the results depend on the processing

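In Induced against Control cells, the 3 called genes of the 8 became 0 with GC offsets (4 at an unadjusted P below 0.05), 1 with GC offsets and the replicate block (CYP51A1), 0 with 1 surrogate variable (1 unadjusted), and 0 to 3 with single libraries left out (3 without Control replicate 5 or Induced replicate 2, 1 without Control replicate 4 or Induced replicate 5, 0 without any other). DESeq2 called 2 and gave CYP51A1 no adjusted P. Scaled by total counts, which moved the median of all genes from 0.04 to 0.28, 3 were called, all higher, against 2 of 3, with INSIG1 in place of FDPS. The 16 other pathway genes became 9, 8 and 0 (11 unadjusted) under the same first 3 settings and 3 to 25 with libraries left out (25 without Control replicate 5, 9 without Control replicate 4, and 3 to 4 without Control replicate 1 or 2 or Induced replicate 1, 3 or 4), and with total counts 16 of 18 were higher against 10 of 16. All called genes became 1 with a surrogate variable (3431 unadjusted), 3471 with GC offsets and 1869 (without Induced replicate 1) to 7604 (without Control replicate 5) with libraries left out, and 74.2% were higher with total counts against 50.2%. The parental count of 0 became 1 with DESeq2, 10 without a filter and 0 to 2 with libraries left out. The interaction's 365 became 1478 with DESeq2, 236 with its size factors, 3 with filterByExpr, 150 without a filter, 222 with the replicate block, 506 with total counts (91.3% higher against 26.0%) and 0 to 2290 with libraries left out, and its 0 of the 8 genes became 0 to 2.

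Among the 8 genes, signs turned in these cases, all without a call, and the cause was not tested. In Induced cells they were SQLE (0.013) and FDFT1 (0.19) with total counts, DHCR7 with GC offsets (0.062, and 0.086 with the block), and SREBF2 with libraries left out (-0.0089 to 0.20). In the parental line they were HMGCS1 with the block (0.062, and 0.12 with GC offsets) and SREBF2 with total counts (-0.11) and the block (-0.21, and -0.11 with GC offsets). With libraries left out, values there ran from -0.65 to 0.72 for HMGCS1, -1.17 to 0.058 for INSIG1, -0.92 to 0.56 for SREBF2, -0.33 to 0.79 for FDFT1 and -1.08 to 0.13 for FDPS. In the interaction they were SREBF2 with total counts (0.49), no filter (0.0098) and the block (0.10), DHCR7 with total counts (0.47) and no filter (0.014), and FDFT1 with total counts (0.17). Leaving out libraries gave -0.42 to 0.82 for SREBF2, -0.84 to 0.034 for FDFT1, -0.93 to 0.032 for FDPS and -0.28 to 0.18 for DHCR7 there.

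Replicate numbers come from the labels. In deviations from group means, same-numbered U2OS-TR/ΔN-RNMT libraries correlated between -0.373 and 0.625 (mean 0.026, beside -0.049 for other pairs). Those of parental cells gave -0.420 to 0.237 (mean -0.060, beside 0.041). So few pairs cannot show whether the numbers mark shared cultures or batches, and the main fits did not pair libraries. The replicate block left 2 of the 3 calls, as HMGCS1 went to an adjusted P of 0.0673 (edgeR). Over all genes it called 5188, of which 4492 were among the 5183 called in the main fit. In parental libraries CYP51A1 rests on 1 to 53 tags.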

Other observations

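Induced replicate 2 lay nearest to the Control libraries in several genes of the pathway that were called higher in Induced cells. In that library IDI1 was 3.15 CPM and INSIG2 2.92 CPM, beside Control replicate 5 at 4.69 and 5.77 CPM. RNMT, at 360.4 CPM in Induced replicate 2 and 112 CPM in Control replicate 5, stood with the labelled group in both. AKAP9, which overlaps CYP51A1 on the opposite strand, had between 193 and 472 counts in U2OS-TR/ΔN-RNMT libraries and between 11 and 91 in the parental ones. The opposite-strand RNA SREBF2-AS1 had between 1 and 19 counts in U2OS-TR/ΔN-RNMT libraries. It had between 11 and 77 in the parental libraries, where SREBF2 had between 73 and 167. Counts of AKAP9 and SREBF2-AS1 are also raw, from libraries of unlike depth.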
